A study of Mus musculus with 9 samples.

Results

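The comparison set sensory neurons marked through parvalbumin in mice with an intact Runx3 gene against those of Runx3 mutants carrying the same reporter. It used 6 of the 9 samples of the series, 3 of genotype Rx3+/+;PV:Cre;Ai14:tdTomato and 3 of genotype Rx3-/-;PV:Cre;Ai14:tdTomato. Genes entered when the authors' deposited RPKM (read counts scaled to transcript length and library size) was 1 or more in either group, which held for 12928 of 23038 genes. All samples came from dorsal root ganglia, the clusters of sensory cell bodies beside the spinal cord, of neonates of both sexes on a mixed C57/Sv129 background. Wild-type samples were taken at postnatal day 6, 4 and 3 from 4, 3 and 3 animals. Mutant samples were taken at postnatal day 3, 0 and 0 from 1, 1 and 4 animals. Genotype and age therefore cannot be told apart in this comparison. In both groups Cre recombinase expressed from the parvalbumin gene switched on the red reporter tdTomato, so a sorted cell is one in which Cre acted at some time before sorting. The genotype labels name the reporter Ai14 and the design text names it Ai9. The Runx3 mutation was carried by the whole animal and not by these neurons alone. The labels do not say which samples shared a litter or a sorting day, so p-values cover only the spread seen among them.

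Proprioceptors are sensory neurons that report muscle stretch and tension to the spinal cord, and rapidly adapting low-threshold mechanoreceptors (RA-LTMRs) report vibration and moving touch. Both are large, fast-conducting neurons that make the calcium buffer parvalbumin. Runx3 is a transcription factor that binds DNA with its partner CBFB. In the developing ganglion it is known to keep expression of the neurotrophin receptor TrkC (Ntrk3), to repress the related receptor TrkB (Ntrk2), and to be needed for proprioceptors to survive and extend axons. By the series' design text no proprioceptors remain in the mutants, and the reporter-positive mutant cells are RA-LTMRs. In these bulk samples fewer cells of a type and less RNA per cell cannot be told apart.

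Wild-type neurons had higher levels of the proprioceptor genes Etv1, Runx3, Pvalb, Ntrk3, Whrn and Cacna1i, of the potassium channel subunit gene Kcnip2 and of the membrane protein gene Vstm2b. Etv1 averaged 551 ± 7.85 RPKM in wild-type and 180 ± 48 RPKM in mutant libraries (SD, n = 3). Mutant neurons had higher levels of the RA-LTMR genes Ret, Ntrk2, Maf, Mafa and Tbx3. They also had higher levels of the neurotrophin gene Ntf3 and of the receptor adaptor genes Shc3, Shc4 and Gab1. In the Hoxc cluster 4 of the 5 genes that passed were higher in wild-type neurons, and in the Hoxb cluster 6 of 7 were higher in mutant neurons.

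The promoters of 3 genes are shown because Runx3 carries the mutation, Etv1 is the most abundant transcription factor gene among the proprioceptor markers, and Ntrk2 is a known target of Runx3. Each window is the 250 bases before an annotated transcription start, from RefSeq (GRCm38.p6, the primary assembly of mm10), on the strand of the gene. Capitals mark the RUNX core motif TGTGGT and its variant TGCGGT on either strand, the other strand reading ACCACA or ACCGCA.
Runx3 upstream start, chr4:135120395-135120644, plus strand: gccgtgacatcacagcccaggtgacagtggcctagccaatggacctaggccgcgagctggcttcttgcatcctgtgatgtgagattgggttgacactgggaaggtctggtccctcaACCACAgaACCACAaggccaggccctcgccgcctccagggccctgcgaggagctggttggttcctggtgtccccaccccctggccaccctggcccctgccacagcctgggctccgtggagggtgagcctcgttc
Runx3 downstream start, chr4:135152295-135152544, plus strand: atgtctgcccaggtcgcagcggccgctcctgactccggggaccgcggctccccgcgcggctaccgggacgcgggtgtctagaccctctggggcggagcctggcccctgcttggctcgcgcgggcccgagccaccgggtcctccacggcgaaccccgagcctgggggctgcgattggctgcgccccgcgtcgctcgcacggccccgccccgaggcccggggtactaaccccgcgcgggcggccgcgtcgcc
Etv1 upstream start, chr12:38779832-38780081, plus strand: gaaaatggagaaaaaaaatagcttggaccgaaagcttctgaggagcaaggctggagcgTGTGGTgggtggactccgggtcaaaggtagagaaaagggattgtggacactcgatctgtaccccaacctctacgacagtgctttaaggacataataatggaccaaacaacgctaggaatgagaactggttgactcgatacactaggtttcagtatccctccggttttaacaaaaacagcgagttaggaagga
Etv1 downstream start, chr12:38783461-38783710, plus strand: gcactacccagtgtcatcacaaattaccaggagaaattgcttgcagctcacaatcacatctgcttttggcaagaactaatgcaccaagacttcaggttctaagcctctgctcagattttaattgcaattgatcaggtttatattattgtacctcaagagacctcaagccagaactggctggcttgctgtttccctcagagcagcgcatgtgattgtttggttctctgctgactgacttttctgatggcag
Ntrk2, chr13:58806319-58806568, plus strand: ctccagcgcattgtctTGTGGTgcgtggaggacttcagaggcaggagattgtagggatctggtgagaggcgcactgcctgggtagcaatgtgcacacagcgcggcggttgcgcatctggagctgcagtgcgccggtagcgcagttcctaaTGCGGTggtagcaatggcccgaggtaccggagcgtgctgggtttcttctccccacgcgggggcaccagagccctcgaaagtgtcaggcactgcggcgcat
The upstream Runx3 window held 2 copies of TGTGGT on the other strand, the upstream Etv1 window 1 copy, and the Ntrk2 window 1 copy of each motif. Neither downstream window held a match. A match describes the letters and says nothing of binding.

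Whole reads per library were recovered from the deposited group RPKM values for 23001 genes, or 99.8% of those listed. For 581 of them this required that libraries of a group lay within 4-fold of each other, which limits their spread. The wild-type libraries held 13737224, 12150764 and 11567681 counted reads and the mutant libraries 12847709, 12171315 and 4510352. Libraries are numbered by depth here, deepest first, because the files do not tie them to the labelled replicates or ages. The mutant libraries differed more among themselves: over genes of 10 RPKM or more the median coefficient of variation was 15.3%, against 8.6% in wild-type libraries. Mutant libraries 1 and 2 held both Xist, the transcript of the inactive X chromosome (12.9 and 20.7 RPKM), and the Y-linked gene Ddx3y (8.28 and 5.96 RPKM). Mutant library 3 held Ddx3y at 11.3 RPKM and no Xist reads. At least 1 of mutant libraries 1 and 2 is a sample labelled as coming from a single animal, so its reads go against that label. The same 2 libraries held transcripts typical of kidney, described with the other cell types. The precursor of ribosomal RNA, Rn45s, had a deposited RPKM of 1671 in wild-type and 9502 in mutant neurons. The part of these library differences in the results was not tested.

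Of the 12928 genes, 3285 (25.4%) were called in the authors' deposited table at an edgeR adjusted p under 0.05. Higher in wild-type neurons were 1563 genes (12.1%) and lower 1722 (13.3%). Counts of called members in the lists below stand against these shares. A difference of 2-fold or more was found for 804 of the higher and 1078 of the lower genes, and of 8-fold or more for 155 and 134. The median log2 fold change was -0.03 over all 12928 genes, 1.02 over the genes called higher and -1.23 over those called lower. The 3 wild-type and 3 mutant libraries did not overlap for 5495 (42.6%) of the 12892 genes with reads per library. Among called genes they did not overlap for 1548 of 1557 higher genes and 1550 of 1715 lower genes. Lack of overlap in a called gene named below is therefore usual and is no further support for its call. With limma on the recovered RPKM values 3029 genes were called, and 2747 of the 3272 genes that the authors had called and that could be fitted were among them, 0 in the opposite direction. Leaving out each wild-type library in turn gave 1552, 1502 and 1443 calls, and leaving out each mutant library 2433, 2567 and 3676. With mutant library 3 as the only mutant library, assumed to vary like the wild-type ones, limma called 1708 genes higher and 956 lower. In that fit all 1557 fitted genes called higher kept their direction, as did 1657 of the 1715 called lower.

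**Figure D1:**
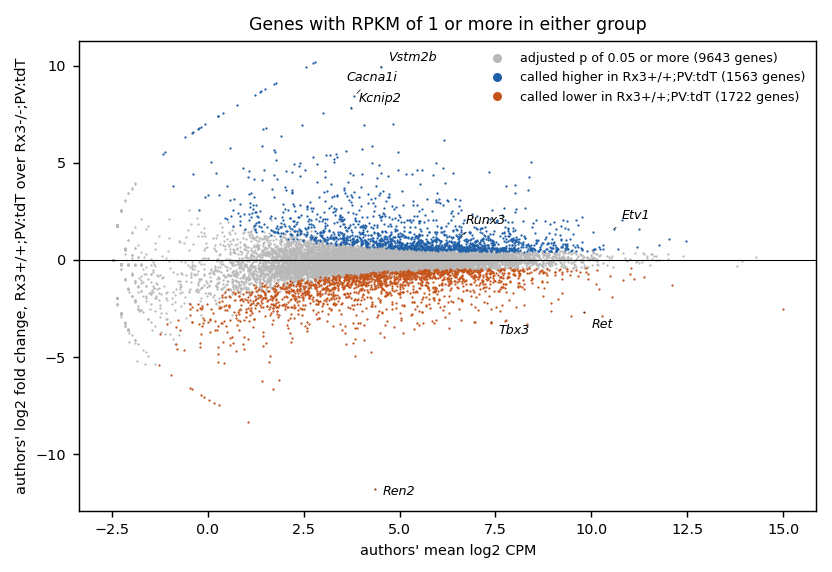
The log2 fold change of wild-type over mutant neurons (authors' deposited values, vertical axis) is plotted against the authors' mean log2 CPM (horizontal axis), 1 point per gene that passed. Blue points are the 1563 genes called higher, orange points the 1722 called lower and grey points the rest.

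The genes that define the groups were read in every library. Runx3 (chromosome 4, 135120645 to 135177990) was at 34.6, 30.2 and 26.2 RPKM in wild-type libraries and at 12.5, 16.6 and 11.3 RPKM in mutant libraries. Each wild-type library was above each mutant library, and the mutants kept reads of the gene (mean 13.5 ± 2.8 RPKM, SD, n = 3). The log2 fold change of Runx3 was 1.16 in the authors' deposited table (by edgeR, adjusted p = 2.8e-07) and 1.18 ± 0.18 (SE) with limma. Values were summed over the whole gene and do not show which part of it the mutant reads came from. Its DNA-binding partner Cbfb was not called, at 147, 120 and 176 RPKM against 123, 130 and 104.

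Pvalb, whose Cre drives the reporter, was at 183, 228 and 190 RPKM in wild-type libraries and at 93.4, 70 and 37.1 RPKM in mutant libraries. It was lower in every mutant library and still read in all of them. Etv1, an ETS transcription factor that proprioceptors need, was at 546, 547 and 560 RPKM against 236, 154 and 151 RPKM. The wild-type libraries were close together and the mutant libraries spread more. Ntrk3, the receptor of neurotrophin-3, was at 85.4, 89.2 and 70.2 RPKM against 17.4, 16.4 and 42.3 RPKM, with mutant library 3 above the other mutants and below every wild-type library. Log2 fold changes in the authors' deposited table (brackets: edgeR adjusted p) were 1.57 for Pvalb (1.5e-07), 1.61 for Etv1 (1.1e-14) and 1.69 for Ntrk3 (8.1e-07).

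The markers Whrn, Cacna1i and Chad were at or near 0 in mutants. Whrn, the scaffold protein whirlin, was at 5.14, 8.85 and 5.07 RPKM in wild-type libraries and at 0.0796, 0.185 and 0 in mutant libraries. Cacna1i, a low-voltage-activated calcium channel, was at 2.62, 2.93 and 2.71 RPKM and had 1 read in all mutant libraries together. Its reads relative to library size were 800 times higher in wild-type neurons, with a 95% exact counting interval from 143 to 3.16e+04. Chad, the matrix protein chondroadherin, was at 2.29, 5.53 and 2.82 RPKM and had no mutant reads, which makes it at least 57-fold higher, taking 3 reads in the whole group as the floor. Of 15 listed proprioceptor markers 13 passed, 9 were called higher and 1 lower. The latter was the POU factor gene Pou4f3, at 5.84, 3.16 and 5.51 RPKM against 8.08, 12.5 and 8.13 RPKM, which lost its limma call in 5 of 6 fits that left out 1 library (highest adjusted p = 0.13). The list's median log2 fold change was 1.57. Among the 3 that were not called, Calb1 was at 5.87, 3.82 and 6.33 RPKM against 7.68, 2.38 and 5.57, so the groups overlapped. Summed over the list, wild-type libraries held 1201 to 1323 RPKM and mutant libraries 563 to 829.

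RA-LTMR markers lay in the opposite direction. Ret, the signalling receptor for ligands of the GDNF family, was at 41.5, 17.5 and 38.8 RPKM in wild-type libraries and at 206, 179 and 248 RPKM in mutant libraries. Its co-receptor gene Gfra2 was at 41.2, 57.4 and 42.9 RPKM against 121, 88.4 and 118 RPKM. Ntrk2 was at 8.25, 3.07 and 6.25 RPKM against 55.9, 74.5 and 45.8 RPKM. No wild-type library reached a mutant library for these receptors. Log2 fold changes in the authors' deposited table were -2.69 for Ret (edgeR adjusted p = 1.5e-19), -1.21 for Gfra2 (2.3e-08) and -3.32 for Ntrk2 (6.7e-24).

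The transcription factor Maf (chromosome 8, 115703253 to 115706894), which RA-LTMRs need for their mature form, was at 5.52, 4.63 and 7.26 RPKM against 30.8, 25.8 and 36.3 RPKM. Mafa, a related factor, was at 0.135, 0 and 0.32 RPKM against 4.04, 4.41 and 6.36 RPKM. Tbx3 (chromosome 5, 119670534 to 119684724), a T-box repressor, was at 8.09, 4.23 and 7.35 RPKM against 69.4, 60.9 and 50.3 RPKM. All 3 genes were separated without overlap, and Mafa was almost unread in wild-type libraries. By the authors' deposited table the log2 fold changes were -2.41 for Maf (edgeR adjusted p = 5.1e-24), -4.41 for Mafa (6.9e-11) and -3.20 for Tbx3 (2.5e-35). With limma they were -2.41 ± 0.20 for Maf and -3.22 ± 0.25 for Tbx3 (SE).

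Of 17 listed RA-LTMR markers 14 passed, 12 were called lower in wild-type neurons and 1 higher, with a median of -2.95. The exception was Cntnap2, which organises potassium channels beside the node of Ranvier, at 86.7, 94.4 and 82.4 RPKM against 35.1, 37.9 and 44.6 RPKM (log2 fold change 1.17 in the authors' deposited table, by edgeR with adjusted p = 1.7e-10). Npy2r and Calb2 did not reach 1 RPKM in either group. Among the 12 called lower, wild-type library 2 had the lowest value for 8 markers. Among the 9 proprioceptor markers called higher it had the highest value for 6. The same order held widely: library 2 was the lowest wild-type library for 753 of 1270 genes called lower (59.3%) and the highest for 865 of 1550 called higher (55.8%), against 36.1% and 36.8% of 8539 genes that were not called.

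**Figure D2:**
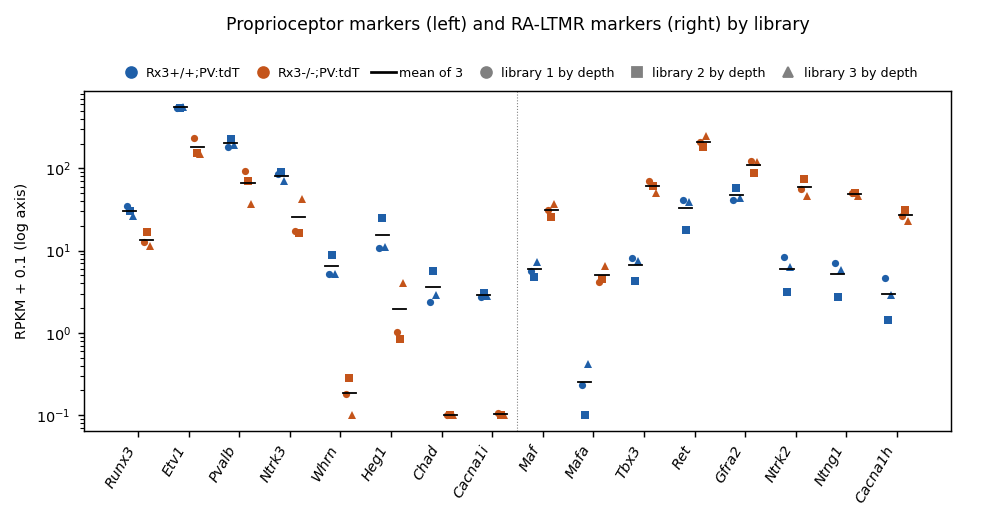
RPKM + 0.1 per library (log axis) is plotted for chosen proprioceptor markers called higher (left) and chosen RA-LTMR markers called lower (right). Blue points are wild-type and orange points mutant libraries, marker shapes give the library by depth and bars the mean of 3. List members that were not called or went the other way, such as Calb1, Pou4f3 and Cntnap2, are left out. No gene shown has overlapping groups, which follows largely from that choice.

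The 10 largest differences in each direction were taken among genes with 10 RPKM or more in the higher group and reads in the lower group, and genes without reads in 1 group, such as Vstm2b and Ren2, were kept apart. Kcnip2, which encodes an auxiliary subunit of Kv4 potassium channels, was at 29.7, 32.3 and 36.6 RPKM in wild-type libraries and had 1 mutant read in library 1 (0.101 RPKM). Its level was 745 times higher in wild-type neurons (95% exact counting interval 133 to 2.95e+04). Vstm2b, an immunoglobulin-domain membrane protein gene, was at 23.2, 34.4 and 33.9 RPKM with no mutant reads, at least 432-fold higher. Its neighbour A230077H06Rik was at 17.9, 20.9 and 17.4 RPKM against 0, 0.0282 and 0.608 RPKM, and their annotated spans overlap by 314 bases on chromosome 7. Both genes of this pair were thus near or at 0 in mutants, and reads in the shared stretch cannot be assigned, with strand use in counting not given in the sources used here.

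Gprc5b, an orphan G-protein-coupled receptor gene, was at 26.8, 31.2 and 33.7 RPKM against 0.533, 0.145 and 0.637 RPKM. Iqck, which overlaps it by 81 bases, was at 13.8, 17.3 and 18.1 RPKM against 0.662, 0.0451 and 0.182 RPKM. Fam70a, a transmembrane protein gene on the X chromosome, was the most abundant of the 10 largest differences, at 191, 218 and 201 RPKM against 3.84, 9.84 and 4.55 RPKM. Each mutant library was far below each wild-type library for these genes. The authors' deposited log2 fold changes, with edgeR adjusted p, were 6.16 for Gprc5b (3.1e-82), 5.54 for Iqck (2e-38) and 5.04 for Fam70a (6.8e-54).

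The rest of the 10 were Wnt7a, a Wnt ligand, Slc38a11, an amino acid transporter gene, Tnni1, the troponin I of slow muscle, Lrrc7, a postsynaptic scaffold gene, and Wls, a transport protein for Wnt ligands. Wnt7a was at 9.37, 12.7 and 8.47 RPKM against 0, 0 and 0.279 RPKM. Wls was at 31.4, 33.7 and 31.3 RPKM against 0.926, 1.43 and 1.11 RPKM. Tnni1 was at 38.2, 37.5 and 23.8 RPKM against 1.75, 0.516 and 0.199 RPKM. None of the mutant libraries reached 2 RPKM for these 3 genes. Another slow-muscle gene, the myosin light chain Myl3, was at 5.43, 5.59 and 4.43 RPKM with no mutant reads (at least 45.7-fold higher). Ndufs5 also had no mutant reads, but only 74 bases were counted and its wild-type level of 8.85, 10 and 2.34 RPKM allows a bound of 5.26-fold. The microRNA gene Mir3106, inside Csmd1, had no wild-type reads and was at 11.4, 2 and 0 RPKM in mutant libraries (at least 5.92-fold higher there), and was not called with limma (adjusted p = 0.11).

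In the opposite direction, Gpr39, a zinc-sensing receptor gene, was at 0.46, 0.214 and 0.225 RPKM in wild-type libraries and at 6.11, 17.4 and 7.01 RPKM in mutant libraries. Lypd1, a membrane-anchored modulator of nicotinic receptors, overlaps Gpr39 by 6241 bases and was at 0.898, 0.508 and 0.41 RPKM against 11.7, 28.6 and 11.6 RPKM. Nckap5, which starts 461 bases from Lypd1, was at 0.374, 0.184 and 0.273 RPKM against 2.06, 2 and 1.14 RPKM. Mutant library 2 was highest for the first pair, and the 3 genes were separated without overlap. Log2 fold changes in the authors' deposited table were -4.93 for Gpr39 (edgeR adjusted p = 1.1e-20), -4.74 for Lypd1 (8.3e-24) and -2.61 for Nckap5 (4.2e-09). These and the following neighbours were picked after their values were seen.

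Neighbouring genes were called together at further places. AW549542, a locus 90176 bases from Tbx3, was at 0.864, 0.279 and 0.977 RPKM against 22.1, 13.4 and 8.77 RPKM. LOC433944, on the other side of Tbx3, was at 3.82, 1.83 and 2.69 RPKM against 22.7, 18.8 and 29.8 RPKM. H60b, Raet1d and Raet1e, ligand genes of the natural killer cell receptor NKG2D that lie together on chromosome 10, had log2 fold changes of -3.99, -3.40 and -3.08 in the authors' deposited table (by edgeR, adjusted p = 3.1e-21, 1.2e-09 and 1.4e-05). They are similar in sequence, so the split of reads between them is uncertain. The imprinted neighbours H19 and Igf2 were at 2.92, 0.504 and 1.75 RPKM against 31.9, 33.3 and 6.61 RPKM (H19) and at 0.344, 0.175 and 0.735 RPKM against 11.1, 8.09 and 3.09 RPKM (Igf2). Library 3 was the lowest mutant library for both, and H19 lost its limma call in 2 of 6 fits with 1 library left out (highest adjusted p = 0.068, without mutant library 2).

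Of the other large differences toward mutants, Fst, the activin inhibitor follistatin, was at 1.25, 1.07 and 1.16 RPKM against 20.3, 20 and 7.3 RPKM. Trp53i11, a gene known as p53-inducible, was at 3.37, 2.08 and 1.99 RPKM against 30.9, 32.9 and 24.9 RPKM. Cck, the peptide cholecystokinin, was at 1.27, 1.44 and 3.65 RPKM against 100, 8.38 and 5.49 RPKM, so mutant library 1 carried most of it. Calca, the peptide CGRP of pain-sensing neurons, was at 11.3, 7.3 and 7.08 RPKM against 99.1, 4.14 and 188 RPKM, and mutant library 2 lay below the wild-type libraries. Mgp, a matrix protein gene, had 2 wild-type reads and was at 14, 17.3 and 0.74 RPKM in mutant libraries, 150 times higher per counted read (95% exact counting interval 41 to 1.24e+03). Fst and Trp53i11 passed with limma (adjusted p = 0.0007 and 0.00014), while Cck (0.052) and Calca (0.19) did not. Mgp passed with limma (adjusted p = 0.014) but was lost in 4 of 6 fits with 1 library left out (highest adjusted p = 0.078, without mutant library 1).

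**Figure D3:**
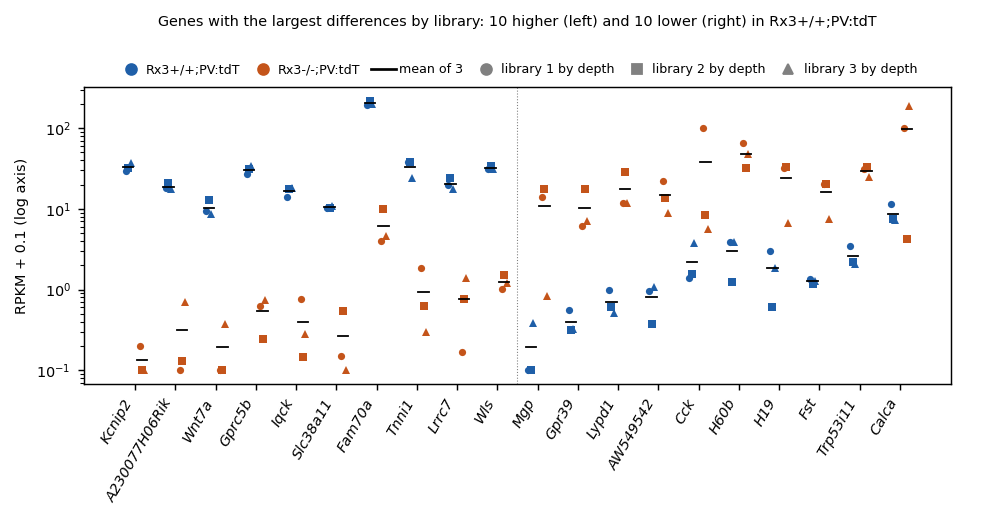
RPKM + 0.1 per library (log axis) is shown for the 10 largest differences in each direction among genes with reads in both groups, with blue points for wild-type and orange points for mutant libraries, shapes for the library by depth and bars for the mean of 3. The groups are separated for every gene shown except Calca, whose mutant library 2 (4.14 RPKM) lies below the wild-type libraries.

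A list of 77 transcription factor genes chosen for somatosensory neurons was more often called lower than higher in wild-type neurons. Of 60 that passed, 10 were called higher and 31 lower, with a median of -0.90. Some members, such as Tbx3, Maf, Mafa and Etv4, also count among the RA-LTMR markers above. Among 17 homeodomain and POU genes 2 were higher and 11 lower. Isl2 was at 3.84, 3.72 and 3.26 RPKM against 16.4, 14.9 and 12.2 RPKM, and Meis1 at 0.814, 0.474 and 0.483 RPKM against 4.02, 4.76 and 4.36 RPKM. Prdm12, known for pain-sensing neurons, was at 1.74, 0.6 and 0.805 RPKM against 8.13, 6.85 and 16.3 RPKM. The ETS genes Etv4 and Etv5, which neurotrophin and GDNF signalling is known to induce, were in the opposite direction to Etv1. Etv5 was at 5.03, 2.82 and 5.43 RPKM against 37.3, 18.3 and 45.1 RPKM, and all 3 mutant libraries were above the wild-type ones. Etv4 was at 0.201, 0.062 and 0 RPKM against 1.95, 3.01 and 1.17 RPKM. All 4 T-box and forkhead genes that passed were lower in wild-type neurons, Tbx2 at 1.55, 1.04 and 1.55 RPKM against 13.4, 9.99 and 8.22 RPKM.

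Nuclear receptor and zinc finger genes included most of those higher in wild-type neurons. Esrrg, an orphan nuclear receptor gene linked to oxidative metabolism, was at 62.5, 88.5 and 66 RPKM against 5.61, 3.36 and 6.72 RPKM. Its relative Esrrb was at 2.24, 3.45 and 2.92 RPKM against 0.194, 0.351 and 0.315 RPKM. Tshz2, a zinc finger gene, was at 63, 73.7 and 56.9 RPKM against 8.13, 4.86 and 17.5 RPKM, and Bcl11a at 1.17, 1.72 and 1.16 RPKM against 0.101, 0.0402 and 0.108 RPKM. None of these overlapped between groups. Log2 fold changes in the authors' deposited table were 3.80 for Esrrg (edgeR adjusted p = 4.6e-45), 3.25 for Esrrb (8.2e-15), 2.67 for Tshz2 (2.1e-12) and 3.93 for Bcl11a (1.8e-17).

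The Groucho co-repressors, which RUNX proteins recruit, differed by member. Of 12 genes in the Runx and Groucho list, which also holds other partners and co-repressors, 6 were higher and 4 lower, with a median of 0.45. Tle4 was at 8.14, 5.5 and 6.74 RPKM against 30.4, 48.4 and 41.3 RPKM, and Tle3 at 2.27, 1.6 and 2.4 RPKM against 8.91, 5.92 and 6.59 RPKM. Tle2 and Aes were called higher instead, with log2 fold changes of 3.24 and 0.58 in the authors' deposited table. In limma Tle2 lost its call in 2 of 6 fits with 1 library left out (highest adjusted p = 0.053, without wild-type library 3). Runx1t1, a co-repressor gene outside the Groucho family, was also higher, at 49.2, 56.3 and 42.1 RPKM against 13.6, 14.3 and 9.73 RPKM. Runx1, the RUNX gene of pain-sensing neurons, was called lower at 0.529, 0.299 and 0.37 RPKM against 1.34, 1.99 and 0.545 RPKM. Its call was lost with limma (adjusted p = 0.12). The log2 fold changes of Tle4, Tle3 and Runx1t1 in the authors' deposited table were -2.55, -1.77 and 1.96 (edgeR adjusted p = 1.7e-27, 8.5e-10 and 8.7e-21).

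Receptors and transducers of neurotrophins and GDNF ligands were more often called lower than higher in wild-type neurons, and Ntrk3 was called higher. The receptor list also held cytokine and other growth factor receptors, and of its 20 genes 2 were higher and 10 lower (median -0.66). Among its 6 neurotrophin receptor genes 1 was higher and 3 lower, and its 6 GDNF receptor genes had the same counts. Of the 3 cytokine and 5 other growth factor receptor genes, 2 in each group were lower and 0 higher. Ngfr, the p75 neurotrophin receptor, was at 228, 151 and 170 RPKM against 867, 405 and 807 RPKM. Gfra1, the co-receptor of GDNF, was at 4.16, 1.85 and 3.49 RPKM against 13, 12.5 and 22.9 RPKM, and Igf1r at 6.59, 4.93 and 6.74 RPKM against 15.5, 18 and 15.4 RPKM. No library of one group reached the other for these 3 genes.

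Downstream of the receptors, 1 of 24 transducer and ligand genes was higher and 10 lower, with a median of -0.59. The adaptors Shc3 and Shc4 were at 2.27, 2.63 and 2.87 RPKM against 13.8, 11.1 and 17.5 RPKM (Shc3) and at 4.94, 3.47 and 4.8 RPKM against 23.6, 24.1 and 24.4 RPKM (Shc4). The docking protein gene Gab1 was at 3.58, 2.03 and 3.2 RPKM against 15.2, 14.2 and 15.9 RPKM. The feedback inhibitors Spry4 and Spred2 had log2 fold changes of -2.18 and -1.62 in the authors' deposited table (by edgeR, adjusted p = 1.1e-20 and 1.8e-17). Their relative Spry1 was higher instead, at 2.02, 2.02 and 1.84 RPKM against 0.813, 0.363 and 0.356 RPKM, but lost its limma call in 3 of 6 fits with 1 library left out (highest adjusted p = 0.075, without wild-type library 1). The ligand gene Ntf3, neurotrophin-3, was at 1.65, 0.691 and 1.45 RPKM against 14.7, 14.2 and 9.17 RPKM (log2 fold change -3.28 in the authors' deposited table, by edgeR with adjusted p = 9.2e-16).

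**Figure D4:**
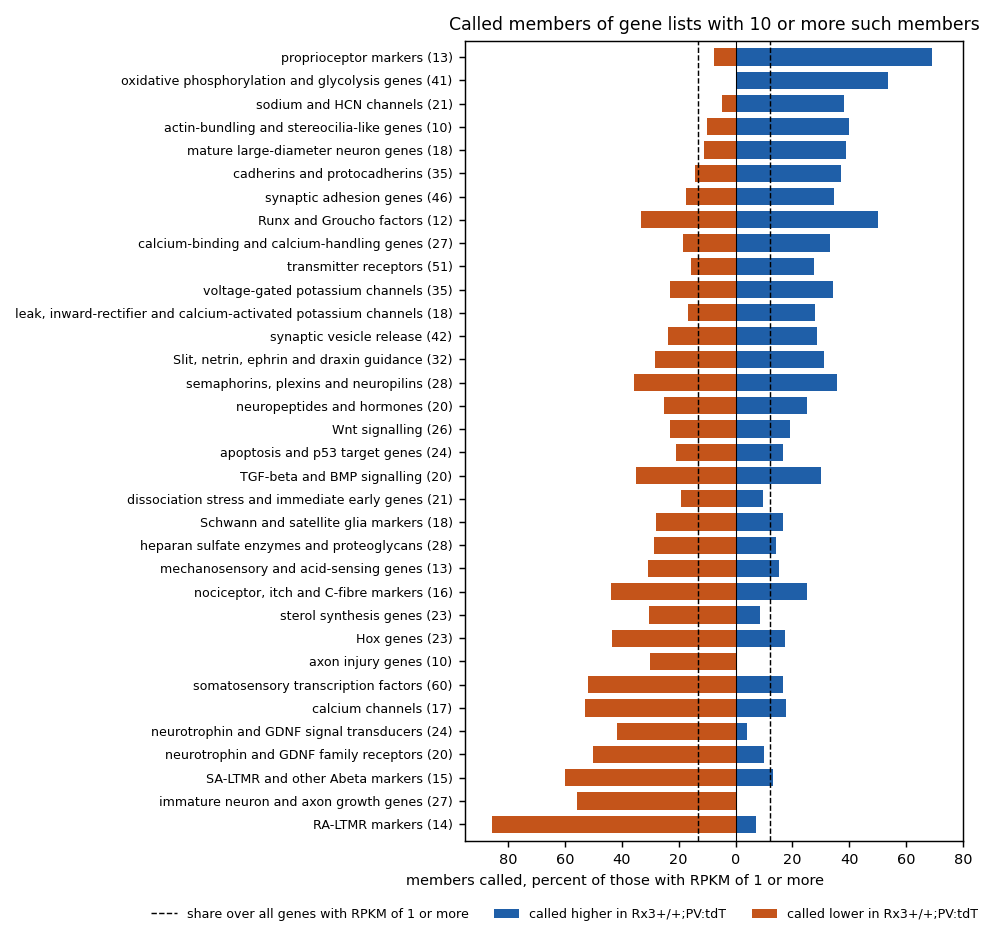
For each list with 10 or more members that passed (number in brackets), bars give the percent of them called higher (blue, right) and lower (orange, left) in wild-type neurons, and dashed lines the shares over all genes (12.1% and 13.3%). RA-LTMR markers (1 higher, 12 lower), the chosen somatosensory transcription factors (10 and 31) and immature neuron genes (0 and 15) lie toward mutants. Oxidative phosphorylation and glycolysis genes (22 and 0) lie toward wild type.

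Axon guidance genes were called in both directions. Of 28 semaphorin, plexin and neuropilin genes 10 were higher and 10 lower, with a median of 0.27. Plxnd1, a receptor of Sema3E, was at 49.7, 45.4 and 38.9 RPKM against 2.17, 2.18 and 1.22 RPKM. Plxna2 was at 75.6, 108 and 78.3 RPKM against 13.7, 16.1 and 34.3 RPKM. Plxna4 and Nrp1, receptors of class 3 semaphorins, were in the opposite direction, at 18.1, 7.56 and 14.6 RPKM against 86.9, 114 and 98.9 RPKM (Plxna4) and at 5.62, 2.45 and 5.69 RPKM against 34.7, 46.4 and 35.9 RPKM (Nrp1). Sema7a, a membrane-anchored semaphorin, was at 39.3, 50.5 and 61.4 RPKM against 9.86, 11.4 and 15.8 RPKM. The groups did not overlap for any of these 5 genes, as for most called genes, and all 5 were read in every library of both groups. By the authors' deposited table log2 fold changes were 4.53 for Plxnd1, 2.04 for Plxna2, -2.90 for Plxna4 and -3.09 for Nrp1 (edgeR adjusted p = 2.6e-76, 4.5e-10, 6.4e-24 and 6.4e-25).

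Among 32 Slit, netrin, ephrin and related genes 10 were higher and 9 lower, with a median of -0.09. Slit2, a secreted repellent, was at 45.8, 55.3 and 44.7 RPKM against 3.09, 4.16 and 4.97 RPKM. Rgma, a repulsive guidance molecule, was at 9.19, 18.5 and 11.3 RPKM against 0.666, 0.769 and 0.296 RPKM. The netrin receptor gene Dcc was at 7.77, 9.69 and 7.17 RPKM against 0.764, 1.26 and 0.715 RPKM. These 3 genes were several-fold above mutants in every wild-type library. Ntng1, a membrane-bound netrin relative, showed the reverse, at 6.96, 2.6 and 5.79 RPKM against 50.3, 49.8 and 46.4 RPKM (log2 fold change -3.25 in the authors' deposited table, by edgeR with adjusted p = 1.7e-26).

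Cell adhesion genes were more often higher in wild-type neurons. Of 35 cadherin and protocadherin genes 13 were higher and 5 lower, with a median of 0.25. Cdh7 was at 16.2, 13 and 16.3 RPKM against 0.992, 1.56 and 1.16 RPKM, Cdh8 at 20.4, 25 and 20.1 RPKM against 2.14, 2.58 and 1.05 RPKM. Cdh12 was at 107, 116 and 98.7 RPKM against 31.2, 32 and 14 RPKM. Pcdh8 had 369 wild-type reads and 1 mutant read, a ratio of 291 (95% exact counting interval 51.9 to 1.15e+04). Pcdh1 and Pcdh17 were lower in wild-type neurons, with log2 fold changes of -1.19 and -1.38 in the authors' deposited table (by edgeR, adjusted p = 2.4e-08 and 1.5e-08). Among 46 synaptic adhesion genes 16 were higher and 8 lower (median 0.20). Nxph1, a ligand of neurexins, was at 4.09, 8.03 and 5.82 RPKM against 0, 0 and 0.47 RPKM, and Cntn6 went the other way, at 3.86, 2.71 and 3.57 RPKM against 9.92, 16.6 and 9.04 RPKM.

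Ion channel genes differed by family. Of 35 voltage-gated potassium channel genes 12 were higher and 8 lower (median 0.33), and the auxiliary subunits of Kv4 channels were among the higher ones. Dpp6 was at 122, 117 and 110 RPKM against 38.6, 33.5 and 41.2 RPKM, Dpp10 at 13.8, 15.1 and 15.7 RPKM against 5.43, 5.8 and 4.74 RPKM, beside Kcnip2 above. The pore-forming Kv4 gene Kcnd1 was in the opposite direction, at 19.9, 24.1 and 21.2 RPKM against 35.4, 33.9 and 45.3 RPKM. Kcns1, a modulatory subunit of Kv2 channels, was at 14.6, 19 and 14 RPKM against 1.44, 0.727 and 1.96 RPKM. Kcnh5, of the EAG family, was at 10, 5.31 and 11.7 RPKM against 31.5, 34.7 and 52.4 RPKM. All 5 of these genes were separated between groups.

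Among the 18 leak, inward-rectifier and calcium-activated potassium channel genes 5 were higher and 3 lower (median 0.33). The leak channel gene Kcnk1 was at 38.6, 57 and 45.8 RPKM against 3.68, 6.02 and 8.46 RPKM, and Kcnk18 at 0.648, 0.0271 and 0.884 RPKM against 6.01, 9.94 and 6.14 RPKM. Of 21 sodium and HCN channel genes 8 were higher and 1 lower, though the median was -0.01. Scn1a, a sodium channel of fast-firing neurons, was at 89.9, 92.1 and 98.5 RPKM against 32, 32.7 and 28.7 RPKM. The member called lower was Scn10a, a channel of pain-sensing neurons, at 2.64, 0.996 and 1.55 RPKM against 5.09, 6.33 and 5.49 RPKM. In limma Scn10a lost its call without mutant library 2 (adjusted p = 0.051).

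Calcium channel genes were more often called lower than higher in wild-type neurons, 3 higher and 9 lower of 17 (median -0.68). The low-voltage-activated family was split. Cacna1h was at 4.52, 1.35 and 2.82 RPKM against 26.6, 30.9 and 22.9 RPKM, whereas Cacna1i was nearly without mutant reads. Their log2 fold changes were -3.20 and 8.44 in the authors' deposited table (by edgeR, adjusted p = 2.1e-19 and 3.5e-53). Of 13 mechanosensory and acid-sensing genes 2 were higher and 4 lower. Fam38b (Piezo2), the channel of touch and proprioception, had a deposited RPKM of 153 in wild-type and 282 in mutant neurons (log2 fold change -0.88 in the authors' deposited table, by edgeR with adjusted p = 1.5e-06), and its reads per library were not recovered. The acid-sensing channel genes Accn2 (Asic1) and Accn3 (Asic3) lay in opposite directions. Accn2 was at 64.7, 81.6 and 72.3 RPKM against 19.3, 28.2 and 20 RPKM, and Accn3 at 29.4, 29.3 and 32.4 RPKM against 69.7, 64.4 and 72 RPKM.

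Of 51 transmitter receptor genes 14 were higher and 8 lower (median 0.20). Grm3, a metabotropic glutamate receptor gene, was at 24.4, 21.8 and 24.3 RPKM against 0.836, 0.86 and 1.13 RPKM. Htr2c was at 3.45, 5.5 and 4.28 RPKM against 0.219, 0.219 and 0.0655 RPKM. The ionotropic serotonin receptor genes Htr3a and Htr3b went the other way, Htr3b at 3.35, 0.92 and 1.75 RPKM against 17.4, 26.5 and 22.3 RPKM. P2rx3, an ATP-gated channel best known from pain-sensing neurons, was at 44.6, 14.6 and 38.3 RPKM against 237, 188 and 187 RPKM. The authors' deposited log2 fold changes were 4.64 for Grm3, 4.43 for Htr2c, -3.43 for Htr3b and -2.65 for P2rx3 (edgeR adjusted p = 7.6e-72, 4.3e-32, 3.1e-18 and 9.4e-15).

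Synaptic vesicle genes were called in both directions, 12 higher and 10 lower of 42 (median 0.17). Slc17a7, the vesicular glutamate transporter VGLUT1, was at 60.5, 70.3 and 72.7 RPKM against 37.2, 26.3 and 30 RPKM. Syt2, the calcium sensor of fast release, was at 90.1, 85.2 and 96.6 RPKM against 37.5, 36.4 and 53.3 RPKM. Rab3b was lower in wild-type neurons, at 14.2, 7.2 and 11.9 RPKM against 47.5, 41 and 42.5 RPKM, while its relative Rab3c was higher, with a deposited RPKM of 338 against 80.4. The neuropeptide and hormone list had 5 members higher and 5 lower of 20. Adcyap1, the peptide PACAP, was at 48.9, 55.1 and 44.1 RPKM against 4.73, 6.23 and 8.01 RPKM, and Vgf at 4.61, 2.88 and 4.89 RPKM against 25.5, 16.2 and 23 RPKM.

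Secreted signals and their modifiers were also represented. The heparan sulfate enzymes Ndst4 and Hs3st2, which sulfate sugar chains that bind growth factors, were at 63, 75.1 and 63.2 RPKM against 5.11, 4.57 and 4.18 RPKM (Ndst4) and at 46.2, 61.9 and 48.6 RPKM against 1.89, 1.81 and 3.57 RPKM (Hs3st2). The sulfatase gene Sulf2, which removes such groups, was at 140, 165 and 134 RPKM against 11.7, 10.5 and 19 RPKM. In the whole list 4 of 28 genes were higher and 8 lower (median -0.42), against 12.1% and 13.3% of all genes that passed. All 5 called core proteins were lower in wild-type neurons. Among 26 Wnt genes 5 were higher and 6 lower. Besides Wnt7a and Wls, the secreted antagonist gene Frzb was at 8.03, 11.4 and 6.6 RPKM against 0.293, 0.45 and 0.38 RPKM, and the Wnt target gene Axin2 was lower at 0.882, 0.383 and 0.906 RPKM against 3.75, 2.47 and 3.41 RPKM. Of 6 FGF genes 1 was higher, the ligand gene Fgf9 at 18.4, 24.6 and 18.8 RPKM against 1.01, 0.655 and 0.757 RPKM, and 3 were lower. TGF-beta and BMP genes had 6 higher and 7 lower of 20, with a median of -0.05.

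In the cytoskeleton list of actin-bundling and stereocilia-like genes 4 of 10 were higher and 1 lower (median 0.86). Lcp1, the actin bundler L-plastin, was at 136, 158 and 138 RPKM against 5.55, 7.32 and 9.7 RPKM. Pls1, a related plastin of hair cells, was at 35.2, 43.2 and 41.1 RPKM against 11.5, 17.6 and 16.6 RPKM, and Clrn1 at 27.4, 22.3 and 25 RPKM against 7.99, 3.79 and 10.7 RPKM. Fscn1, the bundler fascin, was lower, at 51.6, 47.2 and 40.1 RPKM against 106, 104 and 114 RPKM. Among intermediate filaments, peripherin (Prph) was at 423, 317 and 335 RPKM against 914, 802 and 782 RPKM and vimentin (Vim) at 82.4, 48 and 59 RPKM against 207, 212 and 199 RPKM. The heavy neurofilament gene Nefh was not called, at 424, 467 and 575 RPKM against 477, 347 and 536 RPKM, with overlapping libraries.

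Calcium-binding genes beyond Pvalb included abundant ones. Pcp4, a regulator of calmodulin, was at 1493, 2003 and 1453 RPKM against 416, 266 and 541 RPKM, and Vsnl1, visinin-like 1, at 601, 742 and 601 RPKM against 179, 93.2 and 203 RPKM. The list had 9 higher and 5 lower of 27, with a median of 0.03. Genes of oxidative phosphorylation and glycolysis were called in 1 direction, 22 higher and 0 lower of 41 (median 0.51). The differences were small: Atp5g1, a subunit of ATP synthase, was at 145, 151 and 155 RPKM against 81.8, 79.2 and 73.3 RPKM, and Uqcrc1, of respiratory complex III, at 138, 130 and 133 RPKM against 85.5, 86.5 and 87.7 RPKM. Log2 fold changes were 0.94 and 0.63 in the authors' deposited table (by edgeR, adjusted p = 9.7e-07 and 0.0011). Sterol synthesis genes had 2 higher and 7 lower of 23.

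Genes of immature neurons and axon growth were lower in wild-type neurons, sampled mostly at later ages, or not called, 0 higher and 15 lower of 27 (median -0.64). Gap43, a growth cone protein, was at 182, 120 and 152 RPKM against 339, 310 and 280 RPKM. Dcx, doublecortin, was at 9.33, 5.74 and 6.32 RPKM against 32.1, 40.6 and 17 RPKM. Cd24a was at 67.2, 50.1 and 47.9 RPKM against 264, 253 and 323 RPKM. Every mutant library was above every wild-type library for these 3 genes. Among genes of mature large-diameter neurons 7 were higher and 2 lower of 18 (median 0.25). The higher ones include Scn1a, Syt2 and Slc17a7, given above. Age and genotype cannot be told apart for these lists.

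Hox genes, which mark position along the body axis, followed their cluster. In the Hoxc cluster 4 of 5 genes that passed were higher and 0 lower (median 3.42), and their summed level was 39.9, 45.8 and 38 RPKM in wild-type libraries and 8.96, 4.88 and 3.3 RPKM in mutant libraries. Hoxc8 was at 22, 17.5 and 20.8 RPKM against 2.89, 1.53 and 0.749 RPKM, and Hoxc10 at 9.82, 17.8 and 8.18 RPKM against 0.814, 0.129 and 1.27 RPKM. In the Hoxb cluster 0 of 7 were higher and 6 lower (median -2.28), with sums of 20, 20.2 and 17.8 RPKM against 62.4, 53.6 and 38.2 RPKM. Hoxb8, of the same paralogue number as Hoxc8, was at 2.48, 1.34 and 2.19 RPKM against 19.4, 12.7 and 10.7 RPKM. Their log2 fold changes were 3.42 for Hoxc8, 4.03 for Hoxc10 and -2.82 for Hoxb8 in the authors' deposited table (by edgeR, adjusted p = 2e-22, 1.6e-12 and 1.6e-16). In the Hoxa cluster 0 of 7 were higher and 3 lower, and in the Hoxd cluster 0 of 4 and 1. The labels give no axial level for the ganglia.

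Markers of slowly adapting and other Abeta mechanoreceptors had 2 higher and 9 lower of 15 (median -0.95). Of these 9, Cck, Runx1 and Th were not called with limma (adjusted p = 0.052, 0.12 and 0.089). Of 16 nociceptor, itch and C-fibre markers that passed, 4 were higher and 7 lower (median -1.61), and the list's summed level was 194 to 219 RPKM in wild-type and 312 to 507 RPKM in mutant libraries. P2rx3, Prdm12, Scn10a and Calca were lower as given above, while the cold receptor gene Trpm8 was at 3.83, 3.74 and 2.4 RPKM with no mutant reads (at least 129-fold higher). For all 7 members called lower, wild-type library 1 was the highest wild-type library, as it was for 657 of 1270 genes called lower (51.7%). Of the 7, Calca, Runx1 and Th were not called with limma (adjusted p = 0.19, 0.12 and 0.089). The defining nociceptor genes Trpv1 and Mrgprd were under 1 RPKM in both groups.

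Glial markers had 3 higher and 5 lower of 18, with sums of 680 to 771 RPKM in wild-type and 889 to 1047 RPKM in mutant libraries. The myelin gene Mbp was at 7.29, 6.37 and 5.92 RPKM against 1.16, 1.46 and 1.66 RPKM, and Pmp22, which sensory neurons also express, at 124, 81.2 and 103 RPKM against 404, 300 and 421 RPKM. Sox10, the defining factor of glia, was not called, at 1.57, 1.09 and 0.824 RPKM against 1.94, 1.35 and 2.03 RPKM. Of 4 immune markers 2 were higher and 0 lower, Fcer1g at 2.46, 1.98 and 0.834 RPKM and Cd79a at 1.21, 2.17 and 0.717 RPKM, both without mutant reads and so at least 11-fold and 17.9-fold higher. The list's median was 4.09, or 2.46 with these genes at their bounds. Its sums were 8.42 to 10.9 RPKM against 0.22 to 5.5 RPKM, and Cd79a lost its limma call in 2 of 6 fits with 1 library left out (highest adjusted p = 0.055, without wild-type library 2). Fibroblast markers had 2 higher and 2 lower of 5, erythroid markers 1 and 2 of 5 (median -2.70, or -1.64 at bounds), endothelial markers 0 and 1 of 4, adrenal markers 1 and 1 of 4, and spinal cord markers 1 and 1 of 3. The part of these cell types in the results was not tested. None of the skeletal muscle markers passed.

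Kidney transcripts were read in mutant libraries 1 and 2. Of 8 kidney markers that passed 0 were higher and 6 lower in wild-type neurons (median -5.63, or -4.30 with genes without wild-type reads at their bound). Ren2, a renin gene with a near-identical copy in some strains, was at 32.5 and 45.5 RPKM in mutant libraries 1 and 2, with no reads in mutant library 3 or in wild-type libraries. Umod, of the kidney tubule, was at 1.95 and 2.23 RPKM and Podxl, of podocytes, at 5.3 and 7.17 RPKM in the same 2 libraries, against 0 and 0.0415 RPKM in library 3. The list's sum ranged from 4.61 to 7.15 RPKM in wild-type and from 7.13 to 68.2 RPKM in mutant libraries. With limma Ren2 (adjusted p = 0.076), Umod (0.13) and Podxl (0.19) were not called. The globin genes Hba-a2 and Beta-s and the motor neuron gene Slc18a3 had the same pattern, with mutant reads in libraries 1 and 2 and none in library 3. Of 93 called genes without wild-type reads, 60 were read in mutant libraries 1 and 2 and not in 3, and 47 of these would have given more than 3 reads at the depth of library 3. Of 147 called genes without mutant reads, 139 were read in all 3 wild-type libraries.

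**Figure D5:**
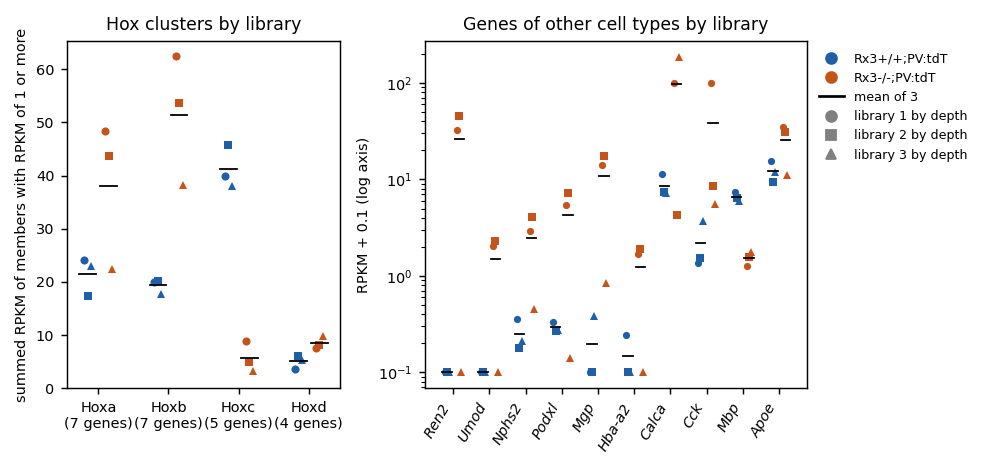
The left panel shows the summed RPKM per library of the Hox genes that passed in each cluster, and the right panel RPKM + 0.1 (log axis) of genes known from other cell types; blue points are wild-type and orange points mutant libraries, bars the mean of 3. Hoxc sums lie between 38 and 45.8 RPKM in wild-type and between 3.3 and 8.96 RPKM in mutant libraries, and Ren2, Umod and Hba-a2 lie at 0 in mutant library 3.

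Over all genes that passed, 12.1% were called higher and 13.3% lower. Genes of the cell cycle had 0 higher and 3 lower of 9, and dissociation stress genes 2 and 4 of 21. The 3 cell cycle genes, Aurkb, Ccna2 and Ccnb2, were each not called in 5 of 6 limma fits with 1 library left out. With all libraries Aurkb and Ccnb2 were not called with limma either (adjusted p = 0.072 and 0.092). Axon injury genes had 0 and 3 of 10, and apoptosis and p53 target genes 4 and 5 of 24. In the last list the pro-apoptotic gene Hrk was at 1.4, 0.844 and 0.902 RPKM against 2.7, 4.59 and 5.78 RPKM, and the p53 target Mdm2 at 22.8, 27.7 and 25.1 RPKM against 15, 14.3 and 17.3 RPKM. Each gene's groups did not overlap, in opposite directions.

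The RUNX motif was counted in the 250 bases before the starts of called genes. It was found for 137 of 1225 genes called higher that had a window (11.2%), 188 of 1316 called lower (14.3%) and 12.5% of the 9792 genes with a window that passed. Counted per window, TGTGGT was present in 12.0% and TGCGGT in 6.0% of all 21302 windows of listed genes; for TGTGGT this compares with 9.1% of windows of genes called higher, 11.6% of those called lower and 10.4% of all that passed, and for TGCGGT with 7.2%, 7.1% and 7.6%. For TGCGGT the shares were 9.4% of genes called higher, 9.3% of those called lower and 9.2% of all that passed. Among genes called 8-fold or more TGTGGT was found for 16 of 126 higher genes with a window (12.7%) and 16 of 92 lower ones (17.4%). TGCGGT had the opposite order there, at 14 of 126 higher genes (11.1%) and 7 of 92 lower ones (7.6%). These shares are descriptions and were not tested. Of 188 genes that passed within 10 Mb of Runx3 itself, 41 (21.8%) were called, against 25.4% of all genes that passed.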

How the data were processed

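RNA sequencing measured 3 Rx3+/+;PV:tdT and 3 Rx3-/-;PV:tdT samples of sorted neurons. Per the labels' protocols, ganglia were digested, cells sorted, RNA amplified, and poly-A selected single-end libraries made. The genome build mm10 and edgeR are named in the submitters' processing notes; aligner, read counter, strand use and type of edgeR test: not given in the sources used here. The table that the authors deposited holds 1 RPKM value per gene and group. It also holds the authors' log2 fold change and mean log2 CPM, the p-value and adjusted p-value, and a flag. No standard error is given with them.

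Each deposited group RPKM equals the mean over 3 libraries of values with 1 read added. From this, whole read counts per library, gene lengths and library totals were solved for 23001 of 23038 genes. Recomputed and deposited RPKM differed by at most 5.1e-15 in relative terms. For 22420 genes exactly 1 combination fitted. The other 581 were solved with added limits. Their length was kept near that implied by the deposited mean log2 CPM, and libraries of a group within 4-fold of each other. Of 5026 genes solved without these limits and with over 300 reads per library, 100.0% were within 0.05 of the deposited mean log2 CPM. The recovered genes hold 80.9 to 85.1% of counted reads; the 37 others, with the most reads, are given as group values. Of the 12928 genes that passed, 390 short genes had no reads in the 6 libraries and passed through the added read. RPKM per library was computed without the added read. The method was tested on simulated data of 23001 genes: all 9 library totals were found exactly, and 6 genes were recovered wrongly.

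Called means an edgeR adjusted p under 0.05 (Benjamini-Hochberg over all 23038 genes) in the authors' deposited table; positive log2 fold changes are higher in Rx3+/+;PV:tdT. Beside it limma (version 3.58.1, R 4.3.3) was fitted on log2(RPKM + 0.1) of 12502 genes, which understates changes of low genes. On simulated data it called 34 of 100 genes changed 2-fold, 93 of 100 changed 4-fold and 8 of 11512 unchanged ones. The simulation gave all genes and both groups the same spread beyond counting error and changed few genes. The real mutant libraries spread more, so these rates need not hold for them. The alternatives without mutant libraries 1 and 2, on CPM and after centring were chosen after seeing the data. Folds against a group without reads use a floor of 3 reads over the group; with 1 to 3 reads a ratio with an exact 95% binomial interval is given. Both cover counting error only, since amplified reads are not independent molecules.

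The comparison, its gene lists and markers were chosen with earlier results of these data known, and no list was tested as a set. Named were Runx3, Etv1, Maf and Tbx3; the 10 genes with the largest change in each direction among those with 10 RPKM or more in the higher group and reads in the lower group; genes of 5 RPKM or more without reads in the other group; and up to 5 called members per list and direction with the smallest p. Other genes were named after their values were seen, and some genes so chosen are not reported here. Gene IDs and promoter windows were matched to RefSeq (GRCm38.p6). Overlapping and near-identical genes may share reads.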

Additional observations from a re-analysis of the deposited data

How the results depend on the processing

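All counts are of genes called in the comparison of wild-type with mutant neurons, 3285 as reported (1563 higher, 1722 lower). Requiring a 2-fold difference left 1882 (804 and 1078), and the authors' flag marked 689, all higher and 0 lower. A minimum of 5 RPKM left 1115 lower. With limma, leaving out 1 library at a time gave 1443 to 3676 genes in all, 743 to 1787 higher and 700 to 1889 lower. Without mutant libraries 1 and 2 limma called 956 lower. Over the lists' members 433 were called as reported, 135 under the flag and 268 to 440 with 1 library left out. The fewest calls came without a wild-type library. Fits without a mutant library also left 2 libraries on 1 side, and the reason for the difference was not tested. Of 283 named genes that limma could fit, 263 were called and 203 were called whichever library was left out. Of 3272 called and fitted genes, 1233 were called whichever library was left out.

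Of the genes named by rule 5 changed sign under an alternative, all with mutant library 3 alone against wild type in limma: Apoe 0.13, Beta-s 0.41, Hba-a2 0.43, Podxl 1.04 and Slc18a3 0.31 (log2, wild type over mutant). Their mutant reads lay mainly in libraries 1 and 2. With promoter windows of 250 bases before and 50 after the start, TGTGGT was found for 14.3% of all genes with a window, and TGCGGT for 11.6% of all, 12.2% of those called higher and 11.8% of those called lower, since the windows are longer. An adjusted p under 0.01, no RPKM filter, a mean RPKM filter, limma on CPM and limma after centring kept the totals over all genes within 1.5 times. Of the counts of single lists, higher and lower, these alternatives moved 9, 14, 4, 8 and 11 by more than that and left 83, 78, 88, 84 and 81, and leaving out 1 library moved 14 to 42. No paired analysis was possible because the libraries recovered from the group values carry no replicate number. Depth limits mutant library 3 most, at 4510352 reads.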
